A study of Mus musculus with 64 samples.

Results

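A set of 10 genes that mark the blood vessels of the brain, out of 49671 in the deposited count table, was followed in RNA from magnetically sorted mouse microglia. Of these, 7 mark endothelial cells, which line the vessel (Flt1, Kdr, Pecam1, Ly6c1, Cldn5, Slco1a4 and Abcb1a). The other 3 mark mural cells, the pericytes and smooth muscle cells wrapped around it (Pdgfrb, Rgs5 and Vtn). The genes were taken by name as textbook markers, by a rule that uses none of their values but was written with earlier results of these data known, and all 10 passed the count filter of every comparison.

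Brain endothelial cells form the blood-brain barrier. Claudin tight junctions seal the gaps between the cells, and carriers and efflux pumps in their membranes decide which molecules cross. Pericytes share a basement membrane with them and are recruited and kept there through platelet-derived growth factor signalling, while vascular endothelial growth factor (VEGF) acts on endothelial receptors to drive growth and survival of the vessel. Microglia, the resident macrophages of the brain, use none of these genes as markers, so vessel cells are another cell type in such a preparation.

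The study collected CD11b-positive cells from 2 regions of the brain of adult male C57BL/6 mice (C57BL6/N in the methods of the study), the hippocampus and the frontal cortex, at 2 phases labelled Day and Night. CD11b is a surface protein of microglia and other myeloid cells, and the cells were captured with anti-CD11b beads after perfusion, cold mechanical dissociation and a Percoll step. The mice were housed on a reversed light-dark cycle, and the labels name no transgene, deletion or drug. Each region and phase was divided into 4 conditions, labelled Ctr0, Ctr1, Cogn and Soci, and each of the 16 groups held 4 libraries, 64 in all. The study describes its sampling as in the light and the dark phase of that cycle and states a time for each. The labels give Day and Night without clock times and do not say what the condition names stand for. They also do not state whether each library was 1 animal, so p-values measure the spread between libraries.

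Library totals ran from 11615344 to 84472229 counts in hippocampus and from 10156071 to 26326521 counts in frontal cortex. Levels are given in CPM, the usual count scaled to library size, after TMM scaling, which corrects each library for a few genes taking a large share. Microglial markers were present throughout, with 10 genes summing to 11550 to 23967 CPM across the libraries, and no marker of that list was at 0 in all of them. The 7 endothelial genes summed to 212 to 1890 CPM and the 3 mural genes to 26.0 to 141 CPM. In bulk RNA, fewer vessel cells and less RNA per vessel cell cannot be told apart.

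The stretches that precede the transcription starts of 4 of the genes are shown because the day-night comparison below parts them, with Flt1 and Cldn5 lower by day in hippocampus and Ly6c1 and Rgs5 not past the test in either region. Each is the 250 bases before the start in RefSeq (GRCm38.p6), 5′ to 3′ on the strand of the gene, and capitals mark matches to the motifs named after them.
Flt1, chr5:147726012-147726261, minus strand: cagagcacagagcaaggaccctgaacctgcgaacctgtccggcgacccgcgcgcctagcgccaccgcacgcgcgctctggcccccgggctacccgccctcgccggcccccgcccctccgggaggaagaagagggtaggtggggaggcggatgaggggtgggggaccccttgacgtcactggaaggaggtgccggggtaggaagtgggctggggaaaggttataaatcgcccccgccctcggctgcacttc
Cldn5, chr16:18776597-18776846, plus strand: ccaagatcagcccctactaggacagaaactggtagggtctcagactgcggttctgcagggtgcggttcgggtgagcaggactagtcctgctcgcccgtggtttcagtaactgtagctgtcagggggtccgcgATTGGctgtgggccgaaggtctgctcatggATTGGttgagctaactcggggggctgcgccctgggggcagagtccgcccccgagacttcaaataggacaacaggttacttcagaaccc
Ly6c1, chr15:75048838-75049087, minus strand: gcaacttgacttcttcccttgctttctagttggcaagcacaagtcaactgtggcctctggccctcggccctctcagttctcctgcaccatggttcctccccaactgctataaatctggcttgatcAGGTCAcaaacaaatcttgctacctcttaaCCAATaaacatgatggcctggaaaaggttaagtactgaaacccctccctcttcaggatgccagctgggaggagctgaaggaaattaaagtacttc
Rgs5, chr1:169655251-169655500, plus strand: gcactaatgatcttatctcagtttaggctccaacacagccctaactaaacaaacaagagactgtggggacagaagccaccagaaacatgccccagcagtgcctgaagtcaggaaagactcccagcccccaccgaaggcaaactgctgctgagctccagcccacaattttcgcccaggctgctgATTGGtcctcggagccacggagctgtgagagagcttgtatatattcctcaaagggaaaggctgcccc
No annotated exon overlapped these 4 windows, and RefSeq starts lay 0, 0, 7 and 0 bases from those of GENCODE for Flt1, Cldn5, Ly6c1 and Rgs5. The letters searched, on both strands, were the E-box CACGTG bound by clock factors, the D-box TTATGTAA, the half-site AGGTCA of ROR receptors, the ETS core CCGGAAG and the CCAAT box CCAAT, none of which overlapped another in these windows. Cldn5 held 2 CCAAT boxes on the strand opposite the gene, and Ly6c1 held 1 and 1 AGGTCA. Rgs5 held 1 CCAAT box on the opposite strand, and Flt1 held no match. RefSeq gave a further start for Ly6c1, at -167 bases from that of GENCODE, whose window is not shown. That window overlapped a Ly6c1 exon and held none of the motifs. Over all 32851 RefSeq promoter windows of this length, CCAAT occurred in 33.8%, AGGTCA in 14.0%, CCGGAAG in 6.91%, CACGTG in 6.02% and TTATGTAA in 0.819%. A match describes letters only, and the absence of a match says nothing about a factor.

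In hippocampal libraries 4 of the 7 endothelial and 2 of the 3 mural genes were lower by day than by night, and no gene of the set was higher. Pdgfrb, Vtn, Cldn5 and Kdr fell to between 59.5% and 66.0% of their night level, and Flt1 and Pecam1 to 77.2% and 80.9%. Slco1a4, Ly6c1, Abcb1a and Rgs5 did not pass the test. In frontal cortex 1 of 7 endothelial genes (Kdr) and 2 of 3 mural genes (Pdgfrb and Vtn) fell. Of all genes tested, 18.8% were lower by day for hippocampus and 21.3% for frontal cortex (edgeR quasi-likelihood test, Benjamini-Hochberg adjusted p under 0.05), with 23.4% and 20.6% higher. That split moved with the scaling and the filter. TMM gave 3637 genes higher and 2913 lower in hippocampus, library totals alone 262 and 4031, and no count filter 2810 and 3833. For frontal cortex TMM gave 3083 higher and 3183 lower, and library totals alone 653 and 3412. With library totals alone all genes had a median change of -0.14 log2 units in hippocampus (0.02 with TMM) and -0.09 in frontal cortex (-0.02 with TMM).

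**Figure D1:**
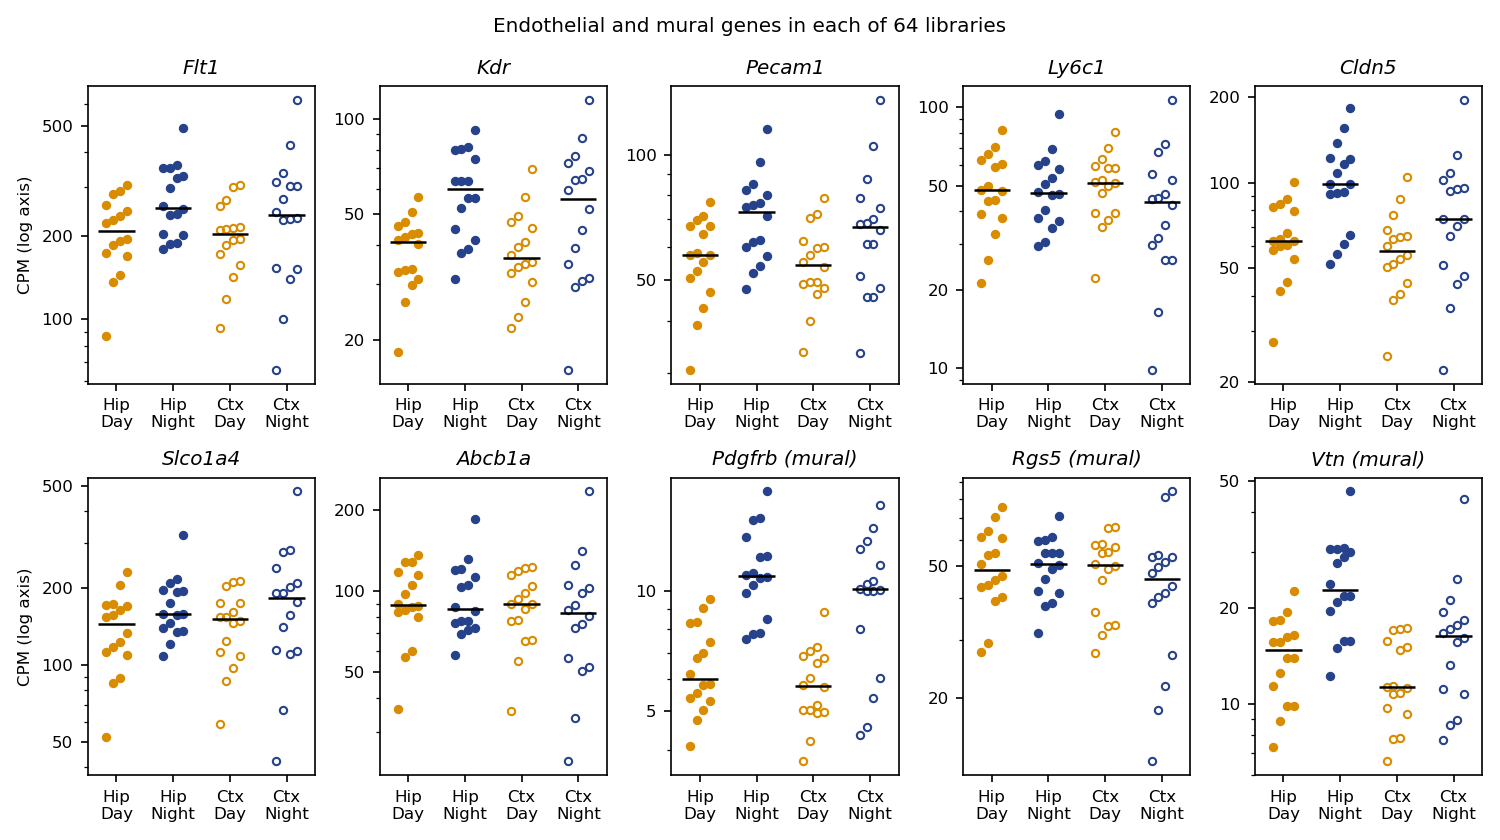
CPM of the 10 genes (log axis) in each of 64 libraries, by region (Hip, hippocampus, filled; Ctx, frontal cortex, open) and phase (orange Day, blue Night), with the median of 16 libraries as a bar. The day and night points overlap for every gene, and they lie farthest apart for Pdgfrb in hippocampus, where 12 of 16 day libraries were below the lowest night library.

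The VEGF receptors were taken first. Flt1 (chr5:147561604-147726011, minus strand) encodes VEGF receptor 1, which also exists as a soluble decoy. In hippocampus it ranged from 87.3 to 306 CPM by day (median 208) and from 180 to 491 CPM by night (median 253). By day 5 of 16 libraries lay below every night library, and the remaining day libraries overlapped the night range. The change was -0.37 ± 0.15 on the log2 scale (SE, adjusted p = 0.0384, edgeR), and it was not past the threshold without the libraries at the extremes that are named below (-0.25, adjusted p = 0.0998). Of the 4 fits that each left out a replicate number, Flt1 was called in the one without replicate 3 alone (adjusted p from 0.00163 to 0.343). Its frontal cortex day median was 202 and night median 238 CPM, and the change of -0.35 ± 0.21 did not pass (adjusted p = 0.182, edgeR).

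Kdr (chr5:75932827-75978458, minus strand) encodes VEGF receptor 2, the main signalling receptor for VEGF-A. In hippocampus it ranged from 18.3 to 56.9 CPM by day (median 40.9) and from 31.1 to 92.7 CPM by night (median 60.1). Every day library was below the night median and 8 of 16 night libraries were above every day library. It was lower by 0.60 ± 0.14 log2 units in hippocampus (adjusted p = 0.00094, edgeR). In frontal cortex it ranged from 21.8 to 69.5 CPM by day and from 16.05 to 116 CPM by night, and it was lower by 0.51 ± 0.20 log2 units (adjusted p = 0.0373, edgeR). Kdr was the single endothelial gene of the set called in both regions. Its call in frontal cortex held in 1 of 4 fits that left out 1 replicate number (adjusted p from 0.0172 to 0.197, edgeR), and its call in hippocampus in all 4 (largest adjusted p = 0.0478).

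Pecam1 (chr11:106654217-106750628, minus strand) encodes CD31, an adhesion molecule of endothelial contacts that platelets and some leukocytes also carry. In hippocampus it ranged from 30.5 to 77.2 CPM by day (median 57.5) and from 47.8 to 116 CPM by night (median 73.1), and 15 of 16 day libraries were below the night median. Its change was -0.30 ± 0.12 in hippocampus (adjusted p = 0.0329, edgeR; -0.21 and 0.078 without the libraries at the extremes), and it was called in 1 of 4 fits without a replicate number, that without replicate 3 (adjusted p from 0.00129 to 0.285). For frontal cortex it was -0.32 ± 0.14 (adjusted p = 0.0696, edgeR). The estimates in the regions were close, and the threshold fell between them.

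Ly6c1 (chr15:75044018-75048830, minus strand) encodes a glycosylphosphatidylinositol-anchored surface protein of endothelial cells. It ranged from 21.2 to 81.7 CPM by day (median 48.0) and from 29.3 to 94.4 CPM by night (median 46.9) in hippocampus. Ranges in frontal cortex were 22.2 to 80.3 CPM (median 51.5) and 9.82 to 107 CPM (median 43.4). The phases lay over each other in both regions, with changes of 0.03 ± 0.16 and 0.20 ± 0.21 log2 units (adjusted p = 0.894 and 0.472, edgeR). Its near-identical neighbour Ly6c2, a monocyte gene, had medians of 0.0734 to 0.355 CPM, and reads shared between the copies were not measured.

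Cldn5 (chr16:18776847-18778262, plus strand) encodes claudin-5, the chief claudin of the tight junctions of the barrier. In hippocampus it ranged from 27.5 to 100.1 CPM by day (median 62.5) and from 51.7 to 183 CPM by night (median 98.6). All but 1 day library were below the night median, while 7 night libraries were above every day library. Its change of -0.64 ± 0.16 was the largest of the endothelial genes in hippocampus (adjusted p = 0.00169, edgeR), and it lost the call only without replicate 2 among the 4 fits that left out a replicate number (adjusted p = 0.0539). Medians in frontal cortex were 57.7 and 74.4 CPM, and the change of -0.46 ± 0.21 did not pass (adjusted p = 0.0805, edgeR).

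Neither transporter gene passed. Slco1a4 (chr6:141805440-141856199, minus strand) encodes an organic anion transporting polypeptide. It ranged from 52.2 to 230.1 CPM by day and from 109 to 323 CPM by night in hippocampus (medians 144 and 158). Ranges in frontal cortex were 58.6 to 213 and 41.9 to 478 CPM (medians 151 and 183). Changes of -0.26 ± 0.15 and -0.36 ± 0.22 did not pass (adjusted p = 0.171 and 0.194, edgeR), although the first did without replicate 3 (-0.50, adjusted p = 0.0195).

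Abcb1a (chr5:8660077-8748575, plus strand) encodes P-glycoprotein, the efflux pump that keeps many drugs out of the brain. It ranged from 36.5 to 137 CPM by day and from 57.9 to 185 CPM by night in hippocampus, with medians of 88.8 and 86.0. The medians in frontal cortex were 89.8 and 83.2 CPM. The day level was 98.7% and 99.0% of the night level (log2 changes -0.02 ± 0.15 and -0.01 ± 0.21, adjusted p = 0.932 and 0.968, edgeR), and the phases overlapped throughout. Its copy Abcb1b had medians of 20.9 to 21.8 CPM and changes of 0.08 ± 0.08 and 0.03 ± 0.05, with neither past the test.

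**Figure D2:**
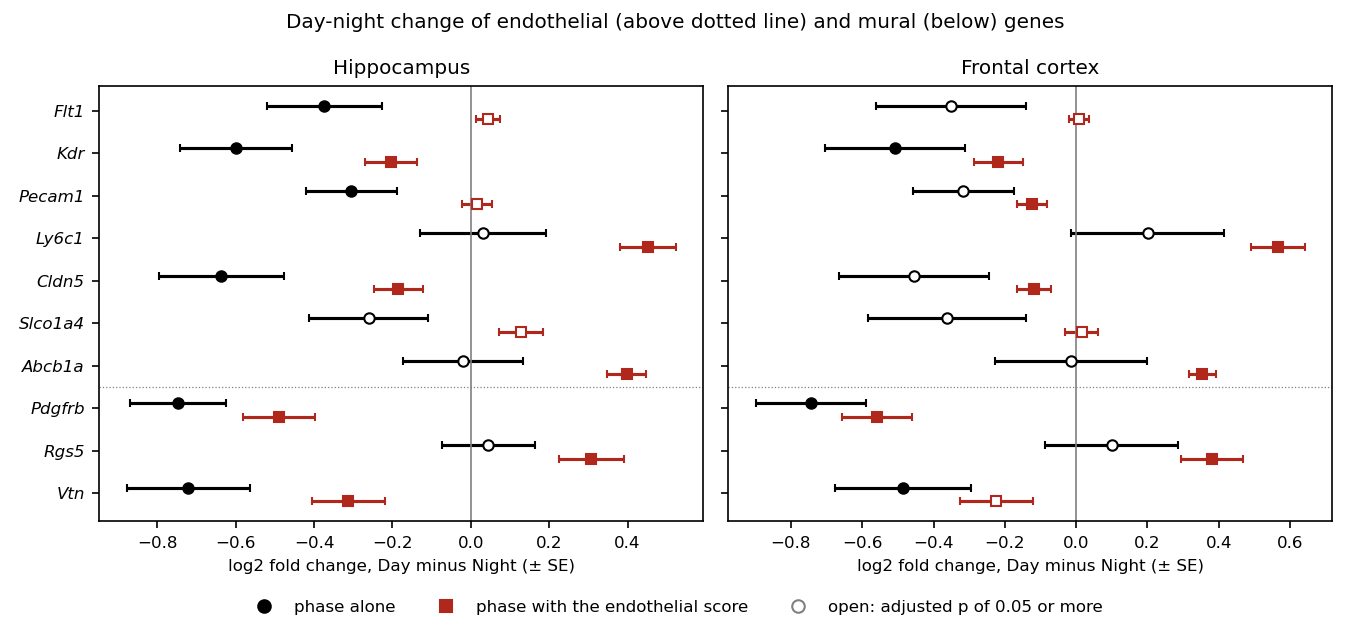
Log2 fold change, Day minus Night, with its SE, of the 10 genes in hippocampus (left) and frontal cortex (right) from edgeR; black circles are from phase alone, red squares with the endothelial score as a second term, and open symbols had an adjusted p of 0.05 or more. Pdgfrb lies farthest to the left in both regions, and Ly6c1, Abcb1a and Rgs5 sit near 0 with phase alone and to the right of it with the score.

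Among the mural genes Pdgfrb, on chromosome 18, encodes the receptor for platelet-derived growth factor B that holds pericytes on vessels. In hippocampus it ranged from 4.09 to 9.54 CPM by day (median 6.01) and from 7.59 to 17.8 CPM by night (median 10.9). In frontal cortex it ranged from 3.74 to 8.84 CPM by day (median 5.78) and from 4.36 to 16.4 CPM by night (median 10.1). All 16 day libraries were below the night median in each region, and 12 and 11 of 16 night libraries exceeded every day library. It fell by 0.75 ± 0.12 log2 units in hippocampus (adjusted p = 9.21e-06, edgeR) and by 0.74 ± 0.16 in frontal cortex (adjusted p = 0.000303). It had 39 to 820 counts a library, and the call held in every fit that left out a replicate number in both regions.

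Vtn (chr11:78499091-78502324, plus strand) encodes vitronectin, an adhesive matrix protein that pericytes make in the brain. In hippocampus it ranged from 7.35 to 22.5 CPM by day (median 14.8) and from 12.3 to 46.5 CPM by night (median 22.8), and 15 of 16 night libraries were above the day median. It fell by 0.72 ± 0.16 log2 units there (adjusted p = 0.000389, edgeR). In frontal cortex the ranges were 6.602 to 17.4 and 7.70 to 43.8 CPM, and it fell by 0.49 ± 0.19 (adjusted p = 0.0392). The frontal cortex call was lost in each fit without a replicate number (adjusted p from 0.0562 to 0.195, edgeR).

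Rgs5 (chr1:169655501-169695813, plus strand) encodes a regulator of G-protein signalling that is a standard pericyte marker. It ranged from 27.5 to 75.4 CPM by day and from 31.5 to 70.9 CPM by night in hippocampus, with medians of 48.8 and 50.7. In frontal cortex its medians were 50.5 and 45.7 CPM. Its changes of 0.04 ± 0.12 and 0.10 ± 0.19 did not pass (adjusted p = 0.787 and 0.692, edgeR). The 3 mural genes therefore did not share one day-night change. Its relative Rgs4 fell in both regions, by 0.64 ± 0.12 and 0.71 ± 0.17 log2 units (adjusted p = 4.65e-05 and 0.00115, edgeR), at medians of 3.07 to 5.46 CPM.

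The amount of endothelial RNA varied between libraries, and 20 other endothelial genes (such as Cdh5, Tie1 and Tek) gave a measure of it. Their mean centred log2 CPM, the endothelial score, averaged -0.12 ± 0.44 by day and 0.30 ± 0.38 by night in hippocampus (SD, n = 16), and -0.19 ± 0.41 and 0.01 ± 0.71 in frontal cortex. The score averaged lower by day in both regions. In a fit that includes it, a gene that follows it without a phase change therefore gets a positive estimate by construction. With this score as a second term in the fit, Ly6c1, Abcb1a and Rgs5 were higher by day relative to it in both regions. In hippocampus the changes were 0.45 ± 0.07, 0.40 ± 0.05 and 0.31 ± 0.08 log2 units (adjusted p = 9.79e-06, 3.54e-07 and 0.00382, edgeR), and in frontal cortex 0.57 ± 0.08, 0.35 ± 0.04 and 0.38 ± 0.09 (adjusted p = 7.23e-07, 2.16e-08 and 0.000792). That fit called 20.2% of all genes higher by day for hippocampus and 20.3% for frontal cortex.

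The genes that fell most in hippocampus stayed lower by day at a given endothelial score, and in frontal cortex this held only in part. In hippocampus Pdgfrb (-0.49 ± 0.09), Vtn (-0.31 ± 0.09), Kdr (-0.20 ± 0.07) and Cldn5 (-0.18 ± 0.06) were called, against 14.8% of all genes called lower. For frontal cortex Pdgfrb (-0.56 ± 0.10), Kdr (-0.22 ± 0.07), Pecam1 (-0.12 ± 0.04) and Cldn5 (-0.12 ± 0.05) were called, against 20.1%, and Vtn (-0.22 ± 0.10) was not. Adjusted p-values of the called genes lay between 3.72e-05 and 0.0438 (edgeR). Flt1 was at 0.04 ± 0.03 and 0.01 ± 0.03 and Slco1a4 at 0.13 ± 0.06 and 0.02 ± 0.05, with no call in either region. The score is itself built from genes of which 12 and 4 of 20 were lower by day, so these changes are relative to that list and not absolute.

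The ratio of each gene to Cldn5 within a library is given as a description. Cldn5 is the endothelial gene with the largest hippocampal change, so a gene that changed less has a higher ratio by day by construction. The log2 ratio of Abcb1a to Cldn5 in hippocampus ranged from 0.40 to 0.81 by day and from -0.46 to 0.58 by night, with means of 0.52 ± 0.11 and -0.06 ± 0.29 (SD, n = 16). All 16 day libraries were above the night median in each region for Abcb1a and for Ly6c1. For Ly6c1 the means were -0.40 by day and -1.03 by night in hippocampus, and -0.21 and -0.90 in frontal cortex. For Kdr the day and night ratios differed by 0.03 and -0.06 log2 units in the regions, less than the SD between libraries. In hippocampus 15 of 16 day libraries for Flt1 and all 16 for Pecam1, Slco1a4 and Rgs5 were also above the night median, with day minus night differences of 0.24, 0.31, 0.32 and 0.63. For Pdgfrb and Vtn the differences were -0.13 and -0.09. These ratios are within one library and show unequal levels, not which of the pair moved.

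Other vascular genes from the fixed lists gave the surroundings. Which cells in the preparation their RNA came from was not tested. In hippocampus 12 of 20 endothelial identity genes fell and none rose, where 18.8% of all genes fell, with a median log2 change of -0.40 against 0.02 over all genes. In frontal cortex 4 of 20 fell, a share near the 21.3% of all genes, with a median of -0.34 against -0.02. Mmrn2, a matrix glycoprotein of endothelium, fell by 0.90 ± 0.14 and 0.83 ± 0.22 log2 units (adjusted p = 5.9e-06 and 0.00297, edgeR), and Egfl7, a secreted endothelial factor, by 0.72 ± 0.14 and 0.64 ± 0.21 (adjusted p = 0.000131 and 0.0143).

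Of 15 barrier transport and junction genes, 2 rose and 5 fell in hippocampus, where 23.4% and 18.8% of all genes did. Of the same 15, 2 rose and 3 fell in frontal cortex, which is near or below the 20.6% and 21.3% of all genes. The glucose transporter gene Slc2a1 rose by 0.46 ± 0.17 and 0.52 ± 0.19 log2 units (adjusted p = 0.0235 and 0.0246, edgeR), and Tjp1, which encodes the junction scaffold ZO-1, rose by 0.39 ± 0.05 and 0.36 ± 0.05. The monocarboxylate transporter gene Slc16a1 fell by 0.81 ± 0.15 and 0.75 ± 0.18. The organic anion transporter gene Slc22a8 fell by 0.84 ± 0.16 and 0.77 ± 0.22. The amino acid transporter gene Slc38a5 fell by 0.72 ± 0.13 in hippocampus, and its change of -0.40 ± 0.21 in frontal cortex did not pass.

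Of the vascular growth factors and receptors, 3 rose and 8 fell of 12 tested in hippocampus, and 3 rose and 4 fell of 11 in frontal cortex. For this list and the next, the shares of all genes were 23.4% rising and 18.8% falling in hippocampus. In frontal cortex they were 20.6% and 21.3%. The lymphatic growth factor gene Vegfc fell by 1.07 ± 0.17 and 1.48 ± 0.27 log2 units, and the VEGF co-receptor gene Nrp1 by 0.35 ± 0.06 and 0.38 ± 0.05. Its relative Nrp2 rose by 0.30 ± 0.04 and 0.32 ± 0.04, and the endothelial Notch receptor gene Notch4 by 0.62 ± 0.12 and 0.77 ± 0.12. In frontal cortex night libraries the growth factor and receptor list summed to 507 to 726 CPM. The 7 endothelial genes of the set summed to 212 to 1890 CPM there, so this list varied less between libraries. Among arterial and venous genes 2 rose and 6 fell of 10 in hippocampus, and 1 rose and 4 fell of 9 in frontal cortex. The arterial connexin gene Gja4 fell by 1.37 ± 0.18 and 1.03 ± 0.26, whereas the adhesion gene Vcam1 rose by 0.46 ± 0.14 and 0.97 ± 0.15. The arterial kinase gene Bmx fell by 0.47 ± 0.17 and 0.79 ± 0.27. In hippocampus the venous factor gene Nr2f2 fell by 0.69 ± 0.12 and the arterial ligand gene Efnb2 rose by 0.21 ± 0.08, and their changes of -0.11 ± 0.18 and 0.02 ± 0.09 in frontal cortex did not pass.

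Of the vessel wall genes, in the pericyte list 6 of 8 tested fell in hippocampus and 2 of 7 in frontal cortex. None rose, and the medians were -0.65 and -0.46. Of all genes 18.8% fell in hippocampus and 21.3% in frontal cortex, so the frontal cortex pericyte count is near that share. Cspg4 (NG2) fell by 1.30 ± 0.12 and 1.15 ± 0.17 log2 units, and Notch3, the Notch receptor of mural cells, by 1.19 ± 0.11 and 1.00 ± 0.20. All 7 smooth muscle genes tested in hippocampus and all 6 in frontal cortex fell, among them smooth muscle myosin Myh11 (by 1.24 ± 0.12 and 1.26 ± 0.22) and actin Acta2 (by 1.07 ± 0.12 and 1.14 ± 0.22). Of the perivascular fibroblast genes 6 and 2 of 7 fell, the count in frontal cortex again near the share of all genes. Igf2, a growth factor gene that vessel-associated fibroblasts and choroid plexus express, fell by 1.51 ± 0.20 in hippocampus and was at -0.39 ± 0.23 in frontal cortex, which did not pass. The collagen gene Col3a1 fell by 0.77 ± 0.20 and 0.63 ± 0.21, and Pdgfra fell by 0.57 ± 0.13 and 0.44 ± 0.16. Adjusted p-values of the genes named as rising or falling from the vascular lists lay between 1.92e-09 and 0.0393 (edgeR).

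**Figure D3:**
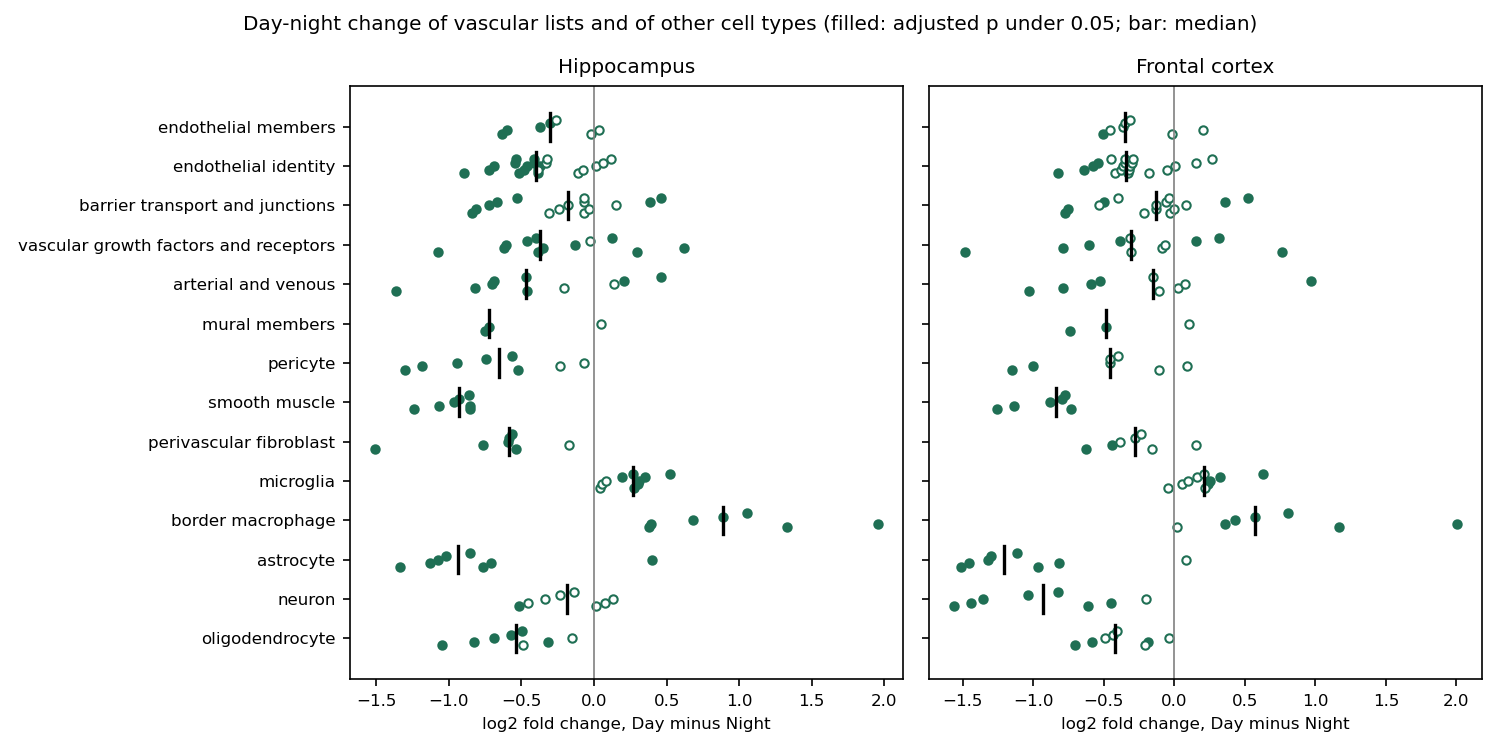
Log2 fold change, Day minus Night, of each gene tested in 14 lists, in hippocampus (left) and frontal cortex (right); filled points had an adjusted p under 0.05 (edgeR) and bars are list medians. The smooth muscle points all lie left of 0, the border macrophage points lie right of 0, and the endothelial and barrier lists spread over both sides.

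Markers of other cells moved with phase beside the vascular genes. The counts below stand beside 23.4% of all genes rising and 18.8% falling in hippocampus, and 20.6% and 21.3% in frontal cortex. The astrocyte list summed to a median of 395 CPM by day and 566 CPM by night in hippocampus (range over both 316 to 1846), and to 453 and 803 CPM in frontal cortex (276 to 2472). In hippocampus 7 of 8 astrocyte genes fell and 1 rose, and in frontal cortex 7 of 8 fell. Of the oligodendrocyte genes 6 and 3 of 8 fell, and of the neuronal genes 1 and 7 of 8 fell. The neuronal count in hippocampus is below the share of all genes. The 8 choroid plexus genes all fell in hippocampus, where their sum had medians of 267 and 1634 CPM (range 1.73 to 2901), and none of the 4 tested in frontal cortex passed. Microglial genes rose in 7 and 4 of 10 cases and border macrophage genes in 7 and 6 of 7. Of 8 neutrophil and monocyte genes, 4 tested, 1 rose and 1 fell in hippocampus and none in frontal cortex. Of 4 haemoglobin genes none passed in hippocampus and all 4 fell in frontal cortex, and the tested ependymal genes fell (2 of 2 and 1 of 1). No list had all its genes at 0, and their part in the vascular changes was not tested.

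Of the 10 genes, 1 differed between the regions. Across phases, Vtn was higher in hippocampus than in frontal cortex by 0.39 ± 0.13 log2 units (adjusted p = 0.0236, edgeR), against 16.6% of all genes past the threshold in either direction. Of all genes 1675 were higher and 992 lower in hippocampus with TMM, and 854 and 1685 with library totals alone, where the median of all genes was -0.11 and Vtn was not called. That call was also lost without any 1 of the 4 replicate numbers. The other 9 changes ran from -0.08 ± 0.14 (Slco1a4) to 0.23 ± 0.14 (Cldn5), with the next smallest adjusted p at 0.242 for Pdgfrb. With the endothelial score as a second term, Slco1a4 was lower in hippocampus by 0.21 ± 0.03 log2 units and Flt1 by 0.06 ± 0.02 (adjusted p = 4.33e-06 and 0.0354, edgeR), and Vtn stayed higher by 0.26 ± 0.07 (adjusted p = 0.00507). In the wall lists, 5 of 7 smooth muscle and 5 of 8 fibroblast genes were higher in hippocampus, led by Igf2 (1.24 ± 0.16) and Myl9 (0.48 ± 0.12). Nr2f2 was higher by 0.88 ± 0.11, Vwf by 0.35 ± 0.12 and Cspg4 by 0.37 ± 0.11. No endothelial identity gene and no barrier gene passed. Beside these, all 8 choroid plexus genes were higher in hippocampus, 2 of 10 microglial and 3 of 7 border macrophage genes were lower, and their part in the difference of Vtn was not tested.

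The day-night change did not differ detectably between the regions for any of the 10 genes (adjusted p from 0.808 to 0.982, edgeR; smallest unadjusted p = 0.277), against 1.19% of all genes. The differences between hippocampus and frontal cortex ran from -0.28 ± 0.25 (Vtn) to 0.06 ± 0.28 (Slco1a4). Cldn5, Flt1 and Pecam1 were called in one region and not in the other, and the test of that difference did not detect one (unadjusted p = 0.42, 0.817 and 0.88, edgeR).

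**Figure D4:**
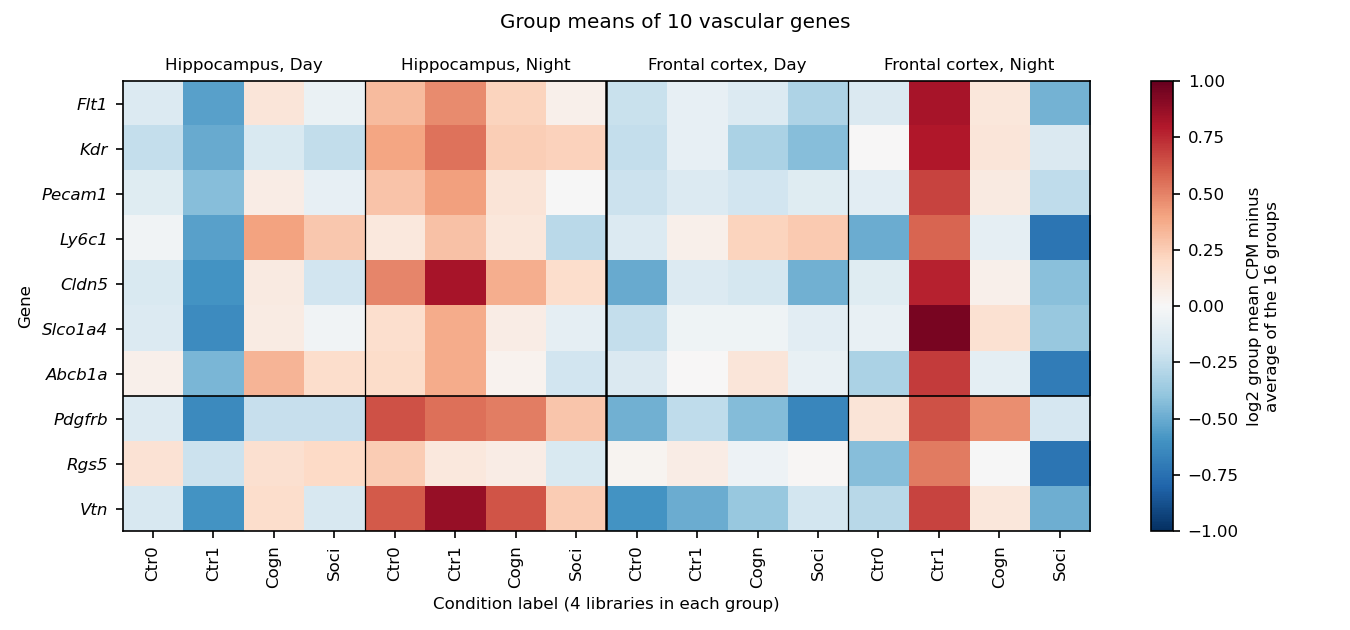
Log2 mean CPM of the 10 genes (rows; mural genes below the line) in the 16 groups of 4 libraries (columns), minus the average of the gene over the groups; red is higher and blue lower. The frontal cortex Night Ctr1 column is red and the hippocampus Day Ctr1 column blue for all 10 genes.

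Over the 16 groups the highest mean was that of frontal cortex Night Ctr1 for 8 of the 10 genes and that of hippocampus Night Ctr1 for Cldn5 and Vtn. The lowest was hippocampus Day Ctr1 for 5 genes (Flt1, Kdr, Pecam1, Cldn5 and Slco1a4), frontal cortex Night Soci for Ly6c1, Abcb1a and Rgs5, frontal cortex Day Soci for Pdgfrb and frontal cortex Day Ctr0 for Vtn. Highest and lowest means differed by 2.15-fold (Pecam1) to 2.99-fold (Slco1a4). Of the 15 gaps between neighbouring means in that order, none exceeded the larger SD of the pair, for any of the 10 genes. The order of neighbours is within the spread of 4 libraries throughout. Neighbours in a sorted list lie close by construction and the SD is that of single libraries, so this is a description and not a test.

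Single libraries of groups near the ends of that order show the spread. Cldn5 in frontal cortex Night Ctr1 was 74.2, 196, 108 and 125 CPM in replicates 1 to 4 (mean 126 ± 51.2, SD, n = 4), and in hippocampus Day Ctr1 66.5, 41.5, 59.7 and 27.5 CPM (48.8 ± 17.7). Abcb1a in these groups was 80.9, 236, 125 and 141 CPM and 88.0, 56.9, 80.0 and 36.5 CPM. Pdgfrb was 10.1, 16.4, 13.3 and 10.1 CPM and 5.83, 5.30, 5.40 and 4.09 CPM. These groups were taken from near the ends of that order and differ in both region and phase, so a gap between them is partly built in. As a description, their libraries did not overlap for Cldn5 or for Pdgfrb, and they did for Abcb1a. How many of all genes would not overlap between these groups was not counted, so nothing particular to Cldn5 or Pdgfrb is read from it.

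The conditions were compared within each region. None of the 10 genes passed for the conditions averaged over phases or for the difference of the day-night change among them, in either region. Across all genes 0.0% (0 of 16826) were called for conditions in hippocampus and 0.0% (0 of 16238) in frontal cortex by edgeR, with 1090 and 1094 genes at an unadjusted p under 0.05, and DESeq2 called 6 and 1. In hippocampus the count was 3862 with library totals alone and 328 without replicate 1, and none of the 10 genes was among the calls in either. For condition by phase edgeR called 0.0% in hippocampus and 0.00616% (1 gene) in frontal cortex, with 695 and 603 genes at an unadjusted p under 0.05, and DESeq2 called 12 and 9. In frontal cortex the unadjusted p for conditions was 0.0362 to 0.112 over the 10 genes, and each had an adjusted p of 0.72 (edgeR). In hippocampus the lowest unadjusted p for condition by phase was that of Ly6c1 (0.0119, adjusted p = 0.999, edgeR).

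The size of the day-night difference by condition is given as a description. In Ctr1 all 10 genes were lower by day in both regions. Differences of group means ran from -1.43 ± 0.38 to -0.38 ± 0.31 log2 units in hippocampus (SE) and from -1.08 ± 0.41 to -0.44 ± 0.37 in frontal cortex. Ctr1 held replicate 4 of hippocampus Day and Night and replicate 2 of frontal cortex Night, which are named below as extremes. In Ctr0 the 10 genes were lower by day in hippocampus (-0.76 to -0.11) and 6 of 10 in frontal cortex (-0.56 to 0.56). In Cogn 7 and 8 of 10 were lower, and in Soci 6 and 3 of 10, with differences in Soci from -0.53 to 0.54 and from -0.38 to 0.98. The 10 genes varied together from library to library, so these counts of genes are not independent observations. The tests above did not call a difference among the conditions.

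From library to library the genes rose and fell together. Within each region all 45 pairs of the 10 genes were positively correlated over 32 libraries (log2 CPM, two-sided permutation test with 100000 resamples, adjusted over 90 pairs). The 21 endothelial pairs had Pearson r from 0.65 to 0.97 in hippocampus (median 0.90, Spearman rho 0.57 to 0.96) and from 0.67 to 0.98 in frontal cortex (median 0.93, rho 0.59 to 0.98). The 3 mural pairs had r from 0.53 to 0.87 and from 0.57 to 0.76. The 21 pairs of an endothelial with a mural gene had medians of 0.78 and 0.79. The weakest by r was Ly6c1 with Pdgfrb, at r = 0.49 and rho = 0.38 in hippocampus (permutation p = 0.00408) and r = 0.40 and rho = 0.32 in frontal cortex (permutation p = 0.0237, adjusted p = 0.0237). By rho the weakest pair in hippocampus was Abcb1a with Pdgfrb (rho = 0.35, adjusted permutation p = 0.0475). By rho Ly6c1 with Pdgfrb did not pass in frontal cortex (adjusted p = 0.0797), and the other pairs passed. The smallest p such resampling can give is 1e-05.

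The pairs were also correlated with the means of the 8 phase and condition groups of each region removed. The endothelial pairs then had r from 0.83 to 0.97 in hippocampus and from 0.83 to 0.99 in frontal cortex, and the pairs across the cell types 0.66 to 0.88 and 0.67 to 0.87. The largest adjusted p over the 90 pairs was 0.00011 by r and 0.00099 by rho (permutation test). Within night libraries alone the endothelial pairs ran from 0.77 to 0.98 and from 0.87 to 0.99, and within day libraries from 0.81 to 0.98 and from 0.74 to 0.98. Leaving out the 2 libraries farthest from the median of the first gene of a pair gave 0.49 to 0.95 and 0.50 to 0.97 for endothelial pairs and 0.28 to 0.91 and 0.27 to 0.83 across the cell types. The libraries share one scaling per library, which enters every pair.

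**Figure D5:**
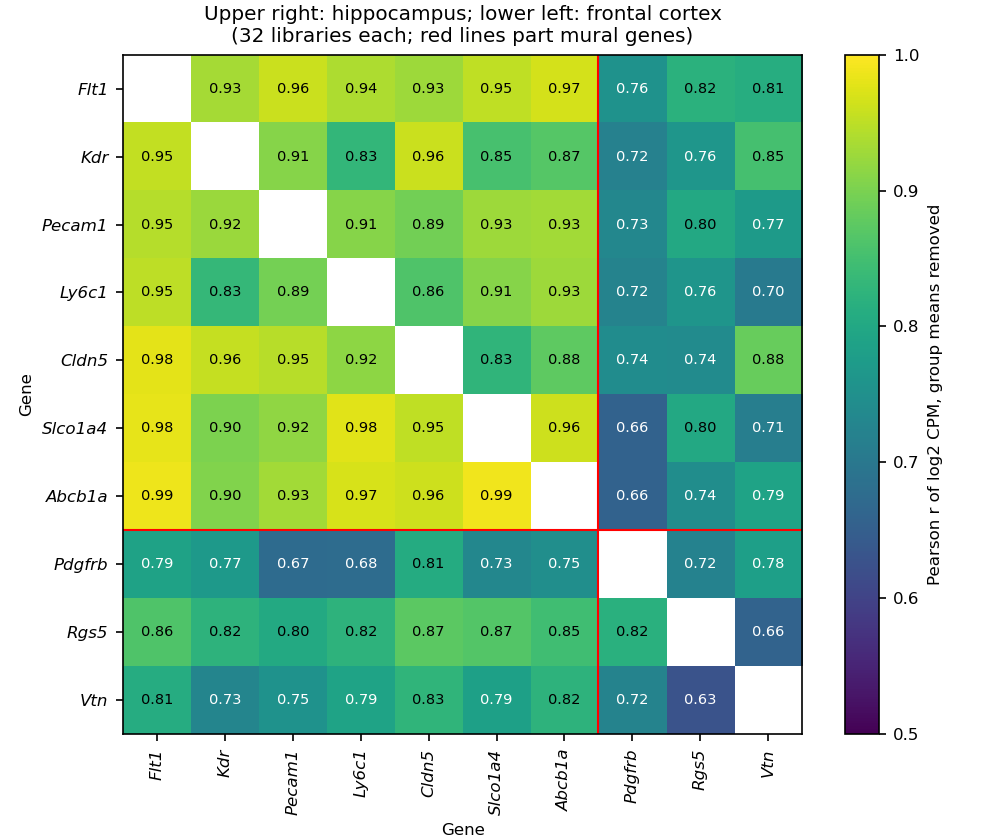
Pearson r of log2 CPM for each pair of the 10 genes with the phase and condition means removed, hippocampus above the diagonal and frontal cortex below it (32 libraries each; red lines separate the mural genes). The endothelial block lies between 0.83 and 0.99, and the rows of the 3 mural genes between 0.63 and 0.88.

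A few libraries held the ends of the range for nearly the whole set. Replicate 4 of hippocampus Day Ctr1 was the lowest day library there for 9 of 10 genes, and replicate 4 of hippocampus Night Ctr1 the highest night library for 9. In frontal cortex replicate 3 of Day Ctr0 was lowest for 9 genes, replicate 3 of Night Ctr0 lowest for 8, and replicate 2 of Night Ctr1 highest for 9. Over 64 libraries the highest level exceeded the lowest by 4.45-fold (Pecam1) to 11.4-fold (Slco1a4). Without these 5 libraries, a choice made after seeing the data, Cldn5, Kdr, Pdgfrb and Vtn kept their calls in hippocampus (-0.52, -0.51, -0.67 and -0.60), and Kdr and Pdgfrb theirs in frontal cortex (-0.42 and -0.70), while Vtn did not (-0.32, adjusted p = 0.1, edgeR).

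Per kilobase of exon, Cldn5 was the most abundant of the set at 54.5 CPM per kilobase (mean of 64 libraries), followed by Ly6c1 (29.0), Slco1a4 (25.1), Flt1 (17.5), Abcb1a (16.8), Pecam1 (10.2) and Kdr (5.35). Among mural genes Rgs5 was at 10.7, Vtn at 8.37 and Pdgfrb at 1.53 CPM per kilobase. Exon lengths are the union of GENCODE M21 exons, and the isoform in use was not measured.

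The genes most like the set were named by their correlation with its mean over 64 libraries, with the 16 group means removed. For the endothelial genes these were Epas1 (r = 0.99), which encodes the hypoxia-inducible factor HIF-2 alpha, the thyroxine transporter gene Slco1c1, Adgrf5, Ptprb (VE-PTP), Podxl, Jcad, the angiopoietin receptor gene Tek and Prom1, with r from 0.98 to 0.99 among 14315 genes compared. Over all genes compared, the median r was -0.02, and 169 exceeded 0.9. For the mural genes they were Esyt2, Afap1l2, Slc9a3r2, Cavin1, Uaca, Lef1, Lama5 and Utrn, all at r = 0.92, and 27 genes exceeded 0.9. None of these 8 was in a fixed list. The mural mean had a median r of 0.87 with the 20 endothelial identity genes, 0.73 with 7 pericyte genes and 0.52 with 6 smooth muscle genes. For the endothelial mean these medians were 0.95, 0.59 and 0.31, and with the microglial list -0.26. These are descriptions over libraries that share depth and scaling.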

How the data were processed

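Total RNA libraries (ribosomal RNA depleted, NEBNext Ultra II) from CD11b-sorted cells were prepared by the authors. The deposited values are raw read counts per gene, which the authors obtained with STAR 2.7.3a and featureCounts (Subread 2.0.0), per the labels and the methods of the study, on the mouse genome GRCm38. The methods of the study take gene lengths from the GENCODE vM12 annotation, and symbols, coordinates and exon lengths here come from GENCODE M21, so a gene model may differ between them. The strand setting of the counting is not given in the sources used here. The table held 49671 Ensembl genes, of which 49326 matched a GENCODE M21 symbol and 16424 had no count. The 10 genes and all lists were chosen with earlier results of these data known. Counting reads over shared or overlapping exons can move a gene; no exon of these genes overlapped another gene, apart from Abcb1a with an antisense transcript (Gm42686).

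Counts were tested in edgeR 4.0.16 (R 4.3.3) with TMM scaling, filterByExpr and the quasi-likelihood F test, with Benjamini-Hochberg adjustment over all genes tested. Day-night changes were fitted on the 32 libraries of a region with conditions pooled, and regions on all 64. Conditions were fitted on the 32 libraries of a region, with the 8 phase and condition means as terms of the fit. Levels are CPM with TMM factors over 64 libraries, with a prior count of 2 on the log2 scale. Correlations were computed in Python 3.11.15 (numpy 2.4.6). Alternatives were median-of-ratios scaling, library totals alone, no count filter, DESeq2 1.42.0, a replicate block, the endothelial score as a covariate and leaving out each replicate number. Leaving out the 5 libraries at the extremes, which were the lowest or highest of their region and phase in at least 8 of the 10 genes, was added after seeing the data. The main fits were also run on simulated counts with 200 changed genes, each gene drawn independently of the others. In the data genes vary together, and no result here rests on that simulation.

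Named genes were the 10 genes and their paralogs, of every other list with a gene past the threshold the 2 of lowest p in each direction with a mean of at least 1 CPM, and the 8 genes most correlated with the endothelial and with the mural genes. No pair of replicates was identical (96 pairs, smallest chi-square per degree of freedom 8.26). Paralogs with medians at or near 0 (Ly6c2, Slco1a1, Slco1a5 and Slco1a6) did not pass the count filter of the day-night and region comparisons. Sequences were copied from a set of RefSeq promoters (GRCm38.p6), and the set used here holds entries for 8 of the 10 genes.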

Additional observations from a re-analysis of the deposited data

Results flagged for a closer look

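Within the 16 groups of 4 libraries, 160 combinations of gene and group were examined for a library that stood apart from the other 3 by Dixon's ratio, which chance gives in about 1 of 20 groups. Such a library was found in 2 combinations. Flt1 was at 303 CPM in frontal cortex Night Cogn replicate 2, with the other 3 libraries from 228 to 232 CPM. Pdgfrb was at 4.55 CPM in frontal cortex Night Ctr0 replicate 3, with the others from 9.99 to 10.6 CPM. That replicate of Night Ctr0 was also the lowest frontal cortex night library for 8 of the 10 genes.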

How the results depend on the processing

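Of the 10 genes, 6 passed the day-night test in hippocampus and 3 in frontal cortex. Median-of-ratios scaling and DESeq2 gave 6 and 3 as well. In frontal cortex library totals alone gave 5 (Pecam1 and Cldn5 added) and no count filter 1 (Pdgfrb). The endothelial score gave 7 there, with Pdgfrb, Kdr, Pecam1 and Cldn5 lower by day and Ly6c1, Abcb1a and Rgs5 higher, all relative to the score. In hippocampus the fit with that score called Pdgfrb, Vtn, Kdr and Cldn5 lower and Ly6c1, Abcb1a and Rgs5 higher, again relative to it. With that score the hippocampal changes of Flt1 and Pecam1 were 0.0440 and 0.0157 and of Abcb1a 0.40, and that of Abcb1a in frontal cortex was 0.35, each with its sign turned. Abcb1a had started at -0.02 and -0.01. The sign also turned, with no call in either fit, for Slco1a4 (0.13 in hippocampus and 0.02 in frontal cortex) and for Flt1 in frontal cortex (0.0084). Leaving out a replicate number gave 3 to 7 genes in hippocampus and 1 to 3 in frontal cortex. The fewest came without replicate 2 in hippocampus (Kdr, Pdgfrb and Vtn), and without replicates 1, 2 and 4 in frontal cortex. With the replicate block 4 passed in hippocampus, where Flt1 and Pecam1 had adjusted p of 0.0629 and 0.0509 (edgeR), and 3 in frontal cortex. The labels do not say that a number pairs samples. Over 32 pairs of regions of the same number the correlation of deviations ran from -0.74 to 0.78, with 12 over 0.1. The median was 0.006, against 0.011 for other numbers, and 11 samples were best matched to their own number.

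Between regions, 1 gene passed. None passed with library totals alone and 3 with the score, where Flt1 turned to -0.0554, and 0 in every fit without a replicate number. Nrp2 turned to -0.0139 with library totals alone. Region by phase and conditions gave 0 of the 10 in every setting.

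Over all genes, the 6550 and 6266 day-night calls became 4293 and 4065 with library totals alone, and 4319 to 7356 and 3941 to 6403 without a replicate number. Region calls were 1322 to 3518 and region by phase 15 to 224 in such fits. Condition calls in hippocampus were 3862 with library totals alone, 6 with DESeq2, 2 with the replicate block and 0 to 328 without a replicate number. In frontal cortex they were 1 with no count filter and 1 with DESeq2. Condition by phase gave 12 with DESeq2 in hippocampus. In frontal cortex it gave 9 with DESeq2, and 0 with library totals alone, the replicate block, the score and every fit without a replicate number. The 45 correlated pairs became 43 to 45 in hippocampus and 44 to 45 in frontal cortex. The cause of these shifts was not tested. The lowest count of any of the 10 genes in a library was 39, for Pdgfrb, whose single values are the least precise of the set.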
